A study of Saccharomyces cerevisiae with 15 samples.

Results

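The comparison set the response of snf1 cells to nitrogen starvation against the response of wild-type cells, gene by gene. For each gene the log2 ratio on the snf1 nitrogen starvation array had the log2 ratio on the wild-type nitrogen starvation array subtracted from it. Genes with a value other than 0 on the wild-type array were used, which gave 5580 of 6249 genes, 3861 of them with a gene symbol. A positive difference means a higher response in snf1 cells than in wild-type cells.

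Both Saccharomyces cerevisiae strains have a W303 background and are mating type a. The snf1 strain, ACY509, lacks SNF1, and the wild type, ACY044, carries it. Cells of each strain were starved of nitrogen for 20 minutes in SD medium without a nitrogen source, and their polyA RNA in Cy5 was hybridised against that of mid-log cells of the same strain in SD medium, in Cy3. The response is therefore a ratio of starved over mid-log cells within 1 strain. A further array set unstarved snf1 cells (Cy5) against unstarved wild-type cells (Cy3), both in mid-log growth, and each strain also had 1 array in 0.375 M KCl and 1 in 0.1% glucose, again for 20 minutes and against mid-log cells.

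Snf1, the AMP-activated protein kinase of yeast, is active when glucose is scarce and is needed for the use of other carbon sources, through the activators Adr1 and Cat8 and the repressor Mig1. Nitrogen starvation lowers the activity of the TORC1 kinase complex, after which the GATA factors Gln3 and Gat1 switch on genes for poor nitrogen sources, the Msn2 and Msn4 stress factors enter the nucleus, and ribosome synthesis is turned down.

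There was 1 array on each side, so no test was possible and sizes alone are given. Precision is limited by that number of arrays. The arrays also differed in how dim spots were treated. Of the gene probes, 36 were listed at exactly 0 on the snf1 array and 672 on the wild-type array, and the 61 control spots had a median of −1.06 on the snf1 array and of 0.0 on the wild-type array. Whether dim signal moved values on the snf1 array was not tested, and counts are also given over the 4653 genes measured on all 15 arrays of the series. SNF1 itself had a log2 ratio of 0.32 on the snf1 array and −0.06 on the wild-type array, and was listed at 0 on the array of mid-log strains, so the deletion could not be checked. Bulk RNA cannot tell a lower level in every cell from a smaller share of cells with the transcript.

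Most of the response was shared. Over the 5580 genes the snf1 and wild-type responses had a Pearson correlation of 0.908 and a Spearman correlation of 0.871, across genes, which are not independent replicates. The responses were at least 2-fold higher in 867 genes (15.5%) and lower in 959 genes (17.2%) in snf1 cells, against 819 (14.7%) and 816 (14.6%) in wild-type cells. The difference had a median of 0.05, quartiles of −0.30 and 0.33 and a range of −5.32 to 1.88. It reached 2-fold higher in snf1 cells for 41 genes (0.735%) and 2-fold lower for 205 genes (3.67%). Requiring a value on all 15 arrays left 17 of the higher and 156 of the lower genes.

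The lower side came from several combinations of responses. Of the 205 lower genes, 65 were within 2-fold on the snf1 array and at least 2-fold higher on the wild-type array. A further 58 were at least 2-fold lower on the snf1 array and within 2-fold on the wild-type array. The remaining genes were lower on both arrays (29), within 2-fold on both (23), higher on both (22), or lower in snf1 and higher in wild-type cells (8). Of the 819 genes higher in wild-type cells, 570 were also at least 2-fold higher in snf1 cells and 241 were within 2-fold there. Of the 816 genes lower in wild-type cells, 708 were also lower in snf1 cells and 108 were within 2-fold.

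**Figure D1:**
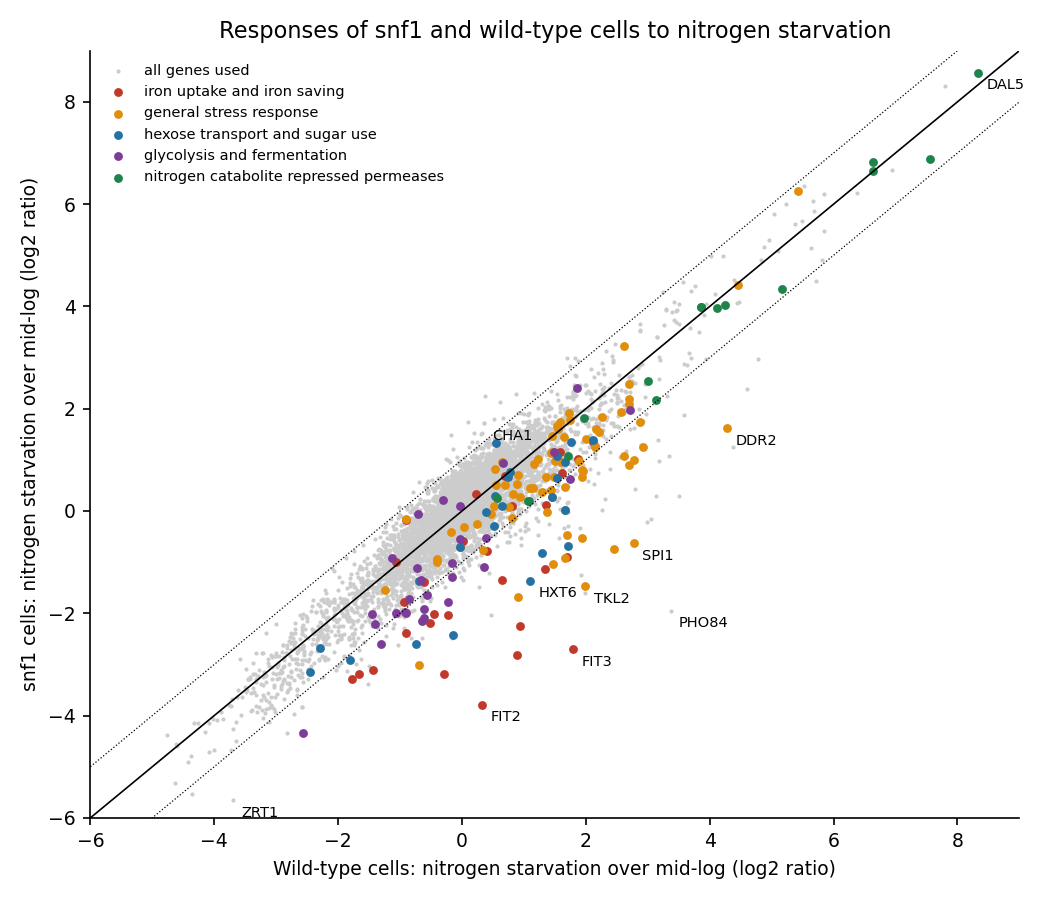
Log2 ratio of nitrogen-starved over mid-log cells in snf1 cells (vertical axis) against wild-type cells (horizontal axis), 1 point per gene and 1 array per strain, with 5 gene lists in colour. The solid line marks equal responses and the dotted lines a 2-fold difference. Iron genes (red) lie mostly below the lower dotted line, while the permeases of the nitrogen catabolite repressed list (green) follow the solid line up to DAL5 at 8.57 in snf1 cells and 8.33 in wild-type cells.

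The lowest difference of all belonged to PHO84, the high-affinity phosphate transporter. Its log2 ratio was −1.95 in snf1 cells and 3.37 in wild-type cells, a difference of −5.32. PHO84 was without a mid-log strain ratio, so its level in the strains before starvation is unknown. The phosphate regulon as a list had a median difference of −0.35 over 23 genes. At least 2-fold higher were 0 genes and lower 2, against 0.735% and 3.67% over all genes. The second lower gene was PHO89, a sodium-coupled phosphate transporter, with 0.25 in snf1 cells and 1.56 in wild-type cells. At the other end of the list PHM8, a phosphatase, had −0.15 in snf1 cells and −0.90 in wild-type cells, so the low value of PHO84 was not shared across the list.

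In all, 7 named genes were at least 2-fold lower in snf1 cells and at least 2-fold higher in wild-type cells, and 0 showed the opposite. Besides PHO84 they were FIT3, SPS100, TKL2, GRE1, FRE2 and HXT6. SPS100, a spore wall protein gene, had −1.60 in snf1 cells and 1.98 in wild-type cells. TKL2, a minor transketolase, had −1.47 in snf1 cells and 1.99 in wild-type cells. GRE1, a stress-induced hydrophilin, had −1.04 in snf1 cells and 1.47 in wild-type cells. The other 3 belong to the iron and hexose transporter genes described next.

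**Figure D2:**
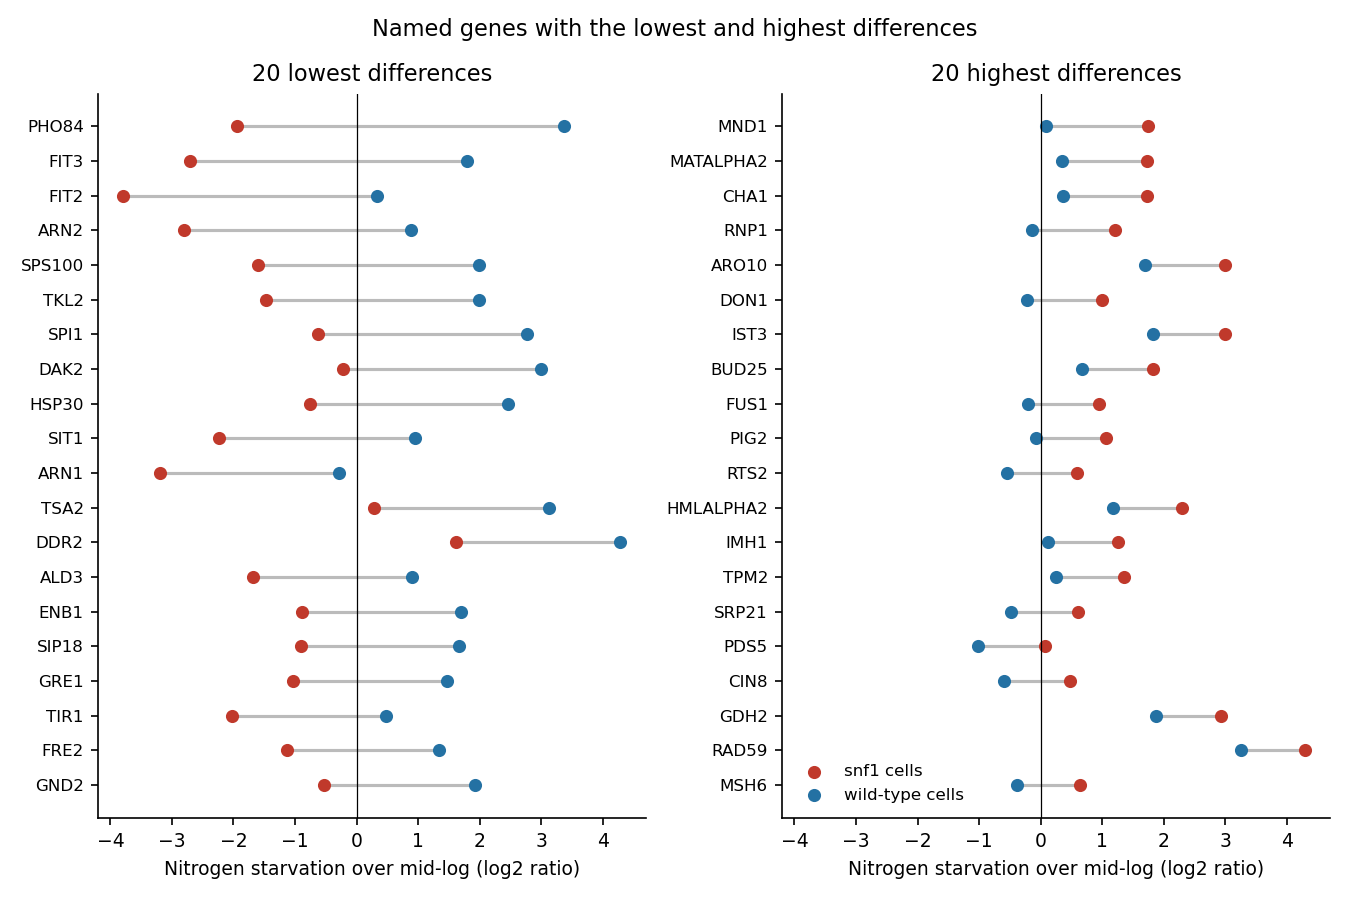
Log2 ratio of nitrogen-starved over mid-log cells in snf1 cells (red) and wild-type cells (blue) for the 20 named genes with the lowest difference (left) and the 20 with the highest (right), 1 array per strain. In the left panel every red point lies to the left of its blue point, with differences of −5.32 to −2.46. In the right panel it lies to the right, with differences of 1.03 to 1.66.

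Genes for iron uptake stood furthest from the wild-type response as a list. The 29 genes, most of them targets of the iron-responsive factor Aft1, had a median response of −1.35 in snf1 cells and 0.33 in wild-type cells. Their median difference was −1.48, against 0.05 over all genes. Of the 29 genes, 17 were at least 2-fold lower in the snf1 response and 0 were higher, against 3.67% and 0.735% over all genes. Of the 17, 15 had a value on all 15 arrays. The response itself was at least 2-fold lower in 14 of these 17 genes in snf1 cells.

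The cell wall mannoproteins that hold siderophores, the iron chelators yeast takes up, had the lowest differences of the list. FIT3 had −2.70 in snf1 cells and 1.80 in wild-type cells, a difference of −4.50. FIT2 had −3.79 in snf1 cells and 0.33 in wild-type cells, a difference of −4.12. The third gene of the family, FIT1, stood nearer to the wild-type response, at −0.79 in snf1 cells and 0.41 in wild-type cells. FIT2, FIT3 and the reductase gene FRE5 are neighbours on chromosome XV in the RefSeq gene order.

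The 4 siderophore transporter genes all had a difference below −2.5. ARN2 had −2.81 in snf1 cells and 0.89 in wild-type cells. SIT1 had −2.24 in snf1 cells and 0.94 in wild-type cells. ARN1, at −3.19 in snf1 cells and −0.29 in wild-type cells, and ENB1, at −0.89 in snf1 cells and 1.69 in wild-type cells, completed the family. The wild-type ratio was above 0 for all of these transporters except ARN1.

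Reductases and the high-affinity uptake complex differed by less. Among the ferric reductases, FRE2 had −1.13 in snf1 cells and 1.34 in wild-type cells, and FRE3 had −1.35 in snf1 cells and 0.65 in wild-type cells. FRE1, FRE4 and FRE5 had differences of −1.51, −1.51 and −1.81. FET3, the multicopper oxidase, had −2.02 in snf1 cells and −0.45 in wild-type cells, and its partner permease FTR1 had −2.38 in snf1 cells and −0.90 in wild-type cells. CCC2, which loads copper into Fet3, had 0.11 in snf1 cells and 1.35 in wild-type cells.

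The iron-saving gene TIS11, whose product directs the decay of transcripts of iron-using proteins, had −3.10 in snf1 cells and −1.44 in wild-type cells. The vacuolar iron transporter gene FTH1 had −2.19 in snf1 cells and −0.52 in wild-type cells. AFT2, the gene for a factor related to Aft1, had 0.33 in snf1 cells and 0.23 in wild-type cells. AFT1 itself, chosen after its values were seen, had −1.06 in wild-type cells and a difference of 0.06. ATX1, the copper chaperone, was the highest of the list at −0.18 in snf1 cells and −0.90 in wild-type cells.

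Before starvation the iron genes stood the other way. On the mid-log strain array, 108 genes (2.17% of 4974 with a value) were at least 2-fold higher in snf1 cells and 80 (1.61%) lower. The iron list held 10 of the higher genes and 0 of the lower ones, with a median of 0.85. FIT2 was at 3.69, FIT3 at 3.53, ARN2 at 2.92 and FRE2 at 1.97. Adding the mid-log ratio to the difference of responses gives the difference in level between the strains in nitrogen starvation, here called the summed difference. It joins 3 single arrays, and the sources do not say whether they used the same mid-log RNA. Mid-log snf1 cells are the numerator of the strain ratio and the denominator of the snf1 response. An error in mid-log RNA used on both arrays would move these values in opposite directions, which was not tested. The summed difference was at least 2-fold lower in 532 genes (10.7%) and higher in 334 (6.71%).

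For the iron list the summed difference had a median of −0.64. Of the 16 lower genes with a mid-log value, 8 remained at least 2-fold lower by the summed difference and 8 were within 2-fold. Over all genes, 136 of 175 such genes remained lower and 39 were within 2-fold. FIT2 came to −0.43, FIT3 to −0.97, FRE2 to −0.50 and TIS11 to −0.34. SIT1 came to −2.31, FRE4 to −2.20, ARN1 to −1.53 and ENB1 to −1.43. The iron genes with the lowest differences thus included both kinds, those within 2-fold between the starved strains and those lower in starved snf1 cells.

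**Figure D3:**
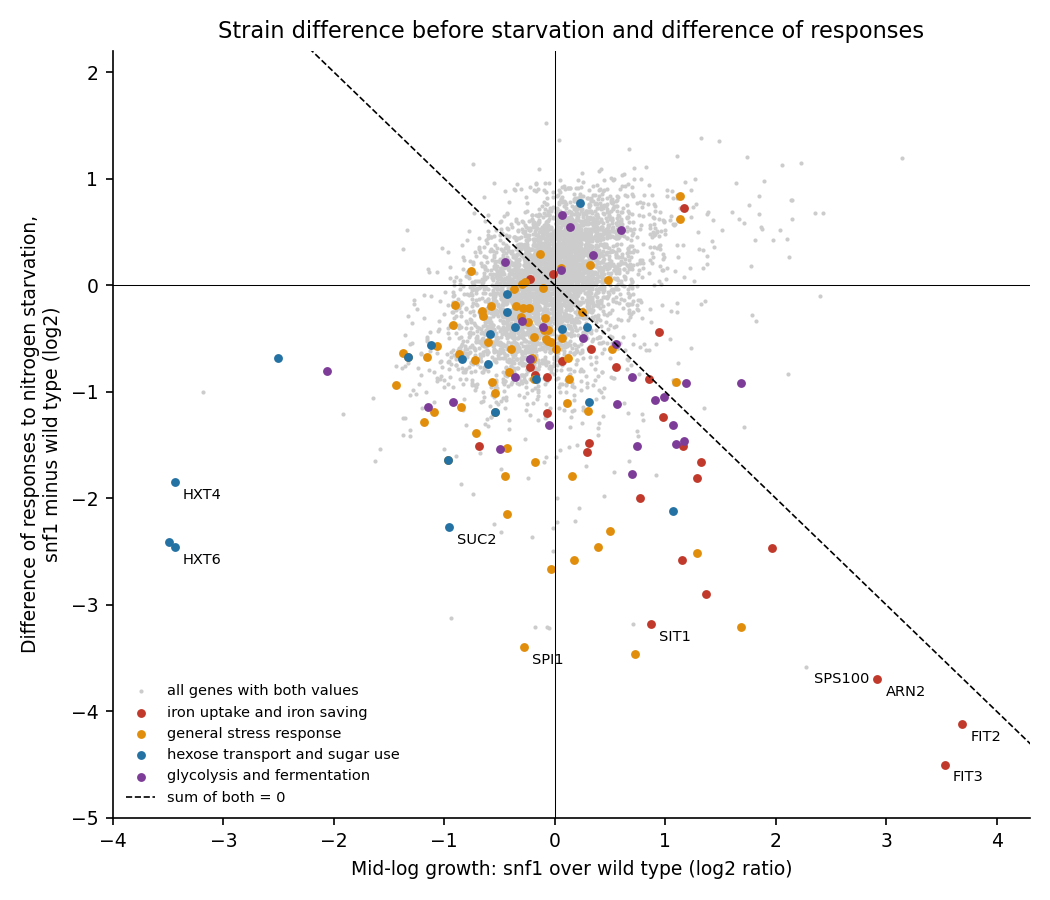
Difference of the snf1 and wild-type responses to nitrogen starvation (vertical axis, log2) against the snf1 over wild-type ratio in mid-log growth (horizontal axis, log2), 1 point per gene, with 4 gene lists in colour. On the dashed line the summed difference is 0. FIT2, FIT3 and ARN2 lie near the line at the lower right, with summed differences of −0.43, −0.97 and −0.78, while HXT6 and HXT4 lie at the far left with −5.90 and −5.29.

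Zinc and copper genes gave a mixed picture. The 15 genes had a median response of −2.08 in snf1 cells and −0.83 in wild-type cells, and the response was at least 2-fold lower in 10 of them in snf1 cells and in 7 in wild-type cells. The difference of responses was at least 2-fold lower in 3 genes and higher in 0, against 3.67% and 0.735% over all genes. ZRT1, the high-affinity zinc transporter, had −5.65 in snf1 cells and −3.69 in wild-type cells. ZPS1, a zinc-regulated cell wall protein, had −2.48 in snf1 cells and −0.83 in wild-type cells. The metallothionein gene CUP1-1, which shares signal with its copy CUP1-2, had 6.26 in snf1 cells and 5.42 in wild-type cells.

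General stress genes were raised less in snf1 cells. The 76 genes had a median response of 0.68 in snf1 cells and 1.52 in wild-type cells. At least 2-fold higher than in mid-log cells were 27 in snf1 and 53 in wild-type cells, against 15.5% and 14.7% over all genes. The median difference was −0.64, with 65 of the 76 below 0, 24 at least 2-fold lower and 0 higher. Over all genes 2502 of 5580 were below 0, 3.67% were at least 2-fold lower and 0.735% higher. With a value on all 15 arrays, 20 of the 24 were left.

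SPI1, a cell wall protein gene, had −0.63 in snf1 cells and 2.77 in wild-type cells, a difference of −3.40. DDR2, a classic Msn2 and Msn4 target, had 1.62 in snf1 cells and 4.28 in wild-type cells. The minor isozyme gene GND2, for a phosphogluconate dehydrogenase, had −0.53 in snf1 cells and 1.93 in wild-type cells. ALD3, an aldehyde dehydrogenase gene, had −1.68 in snf1 cells and 0.90 in wild-type cells. These 4 ran from a smaller increase (DDR2) to a decrease where wild-type cells had an increase (ALD3).

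HSP26, a small heat shock protein gene, had −3.01 in snf1 cells and −0.70 in wild-type cells. HBT1, which acts in mating projections, had −0.46 in snf1 cells and 1.69 in wild-type cells. XBP1, a transcriptional repressor induced by stress, had 0.99 in snf1 cells and 2.78 in wild-type cells. The factors themselves did not follow, with MSN2 at 0.53 in snf1 cells and 0.19 in wild-type cells, and MSN4 at 0.76 in snf1 cells and 0.47 in wild-type cells. CUP1-1 and PHM8, also on this list, were its highest members.

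Unlike the iron genes, the stress genes mostly stayed lower once the mid-log ratio was added. Their median was −0.23 on the mid-log strain array and −0.94 for the summed difference. Of the 22 lower stress genes with a mid-log value, 21 were at least 2-fold lower by the summed difference. Over all genes, 136 of 175 lower genes with a mid-log value were too. The summed difference contains the difference by which these genes were picked, so most staying lower is no trait of the stress list. SPI1 came to −3.68, DDR2 to −2.69 and TKL2 to −2.73.

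The heat shock and osmotic stress lists also had lower members. For comparison, 3.67% of all genes were at least 2-fold lower in the snf1 response and 0.735% higher. Of 30 heat shock factor targets and chaperones, 7 were at least 2-fold lower in the snf1 response and 0 higher, with a median difference of −0.31. HSP30, a plasma membrane heat shock protein gene, had −0.75 in snf1 cells and 2.46 in wild-type cells. SSA3, an inducible Hsp70 gene, had −0.52 in snf1 cells and 1.57 in wild-type cells. SSB1 had −3.83 in snf1 cells and −2.59 in wild-type cells, and its near-identical copy SSB2 differed from it by 0.01 in the difference. On the osmotic stress and glycerol list, the difference was at least 2-fold lower in 6 of 25 genes and higher in 0, with a median of −0.60. Its lowest gene was DAK2, a dihydroxyacetone kinase gene, with −0.22 in snf1 cells and 2.99 in wild-type cells.

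The lowest 20 named genes included 2 from other lists. The peroxiredoxin gene TSA2 had 0.29 in snf1 cells and 3.13 in wild-type cells. TIR1, a cell wall mannoprotein gene of the ergosterol list, had −2.03 in snf1 cells and 0.47 in wild-type cells.

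The list of hexose transporters and sugar use genes had lower responses in snf1 cells. It holds glucose-repressed genes such as SUC2 and HXT6, and also genes that glucose does not repress, such as HXT1, HXT3 and HXK2. The 25 genes had a median response of 0.02 in snf1 cells and 0.75 in wild-type cells, and a median difference of −0.72. The difference was at least 2-fold lower in 8 genes and higher in 0, against 3.67% and 0.735% over all genes. HXT6 and HXT7 are near-identical high-affinity transporters that can share signal. HXT6 had −1.36 in snf1 cells and 1.10 in wild-type cells, and HXT7 had −0.69 in snf1 cells and 1.72 in wild-type cells. SUC2, the invertase gene, had −2.42 in snf1 cells and −0.15 in wild-type cells.

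HXT4, another high-affinity transporter, had −2.60 in snf1 cells and −0.75 in wild-type cells. HXT5, a transporter expressed in slow growth, had 0.02 in snf1 cells and 1.66 in wild-type cells. HXT17 had −0.83 in snf1 cells and 1.29 in wild-type cells, and the glucokinase gene GLK1 had 0.27 in snf1 cells and 1.46 in wild-type cells. The last of the 8 was HXK2, the main hexokinase, with −2.91 in snf1 cells and −1.81 in wild-type cells.

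Several of these genes were already lower in snf1 cells before starvation. Their mid-log median was −0.59, with 6 genes at least 2-fold lower and 1 higher, against 1.61% and 2.17% over all genes. The summed difference had a median of −1.34. HXT6 was at −3.44, HXT7 at −3.49 and HXT4 at −3.44 in mid-log growth. With the difference of responses added, HXT6 and HXT7 both came to −5.90 and HXT4 to −5.29. SUC2 came to −3.23.

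Among 13 glucose-regulated transcription factors the median difference was 0.16, with 0 higher and 2 lower, against 0.735% and 3.67% over all genes. ADR1, the activator of alcohol and fatty acid use, had −0.36 in snf1 cells and 1.06 in wild-type cells, and was at −1.31 on the mid-log strain array. The other was HXK2, which also has a role in glucose repression. CAT8, the activator of gluconeogenesis, and SIP4, a related activator, had differences of 0.16 and −0.34. MIG1, the glucose repressor, had 0.41 in snf1 cells and 0.10 in wild-type cells, and MTH1, STD1, RGT1, HAP4 and RDS2 had differences between −0.21 and 0.26. MIG2, a second glucose repressor, had a difference of −0.42. The repressors NRG1 and NRG2 differed in sign, at −0.73 and 0.73.

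Genes of the Snf1 complex, its upstream kinases and its phosphatase were close to the wild-type response. The 7 measured genes other than SNF1 had differences between −0.25 for SIP1, a beta subunit, and 0.63 for ELM1, an upstream kinase. SNF4, the gamma subunit, had 0.36 in snf1 cells and 0.16 in wild-type cells. GAL83 and SIP2, the other beta subunits, differed by 0.09 and −0.12.

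Downstream carbon genes were mixed. Of 29 genes of gluconeogenesis, the glyoxylate cycle and the use of 2-carbon compounds, the difference was at least 2-fold lower in 5 and higher in 0. The shares over all genes were 3.67% and 0.735%. The list had a median difference of −0.12. The lactate transporter gene JEN1 had 0.16 in snf1 cells and 1.70 in wild-type cells. ATO2, a putative acetate or ammonium transporter, had 1.29 in snf1 cells and 2.89 in wild-type cells. ACS1, acetyl-CoA synthetase, had −0.38 in snf1 cells and 0.93 in wild-type cells. PHO89, also on this list, and YAT1, a carnitine acetyltransferase, made up the 5. ALD6, a cytosolic aldehyde dehydrogenase, was the highest, with −0.67 in snf1 cells and −1.60 in wild-type cells.

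Glycolytic genes had the next lowest median after the iron list. The 29 genes of glycolysis and fermentation had a median response of −1.30 in snf1 cells and −0.61 in wild-type cells. Their median difference was −0.86, with 12 genes at least 2-fold lower and 0 higher, against 3.67% and 0.735% over all genes. All 12 had a value on all 15 arrays. The response was at least 2-fold lower in 18 of 29 genes in snf1 cells and in 6 in wild-type cells. Over all genes 17.2% and 14.6% were lower.

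Among the 12, TDH2, a glyceraldehyde-phosphate dehydrogenase gene, had −4.34 in snf1 cells and −2.57 in wild-type cells. PGK1, phosphoglycerate kinase, had −1.10 in snf1 cells and 0.36 in wild-type cells. ADH1, the fermentative alcohol dehydrogenase, had −2.10 in snf1 cells and −0.61 in wild-type cells. The enolase genes ENO1 and ENO2 had differences of −1.51 and −1.31, and the pyruvate kinase gene CDC19 one of −1.08. PGI1, phosphoglucose isomerase, had −2.61 in snf1 cells and −1.30 in wild-type cells. TYE7, an activator of glycolytic genes, was the highest of the list at −0.05 in snf1 cells and −0.71 in wild-type cells.

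The glycolytic list was split in mid-log growth, with a median of 0.30, quartiles of −0.24 and 0.78 and the same limit from the mid-log RNA. Of 28 genes with a value, 5 were at least 2-fold higher in snf1 cells and 2 lower, against 2.17% and 1.61% over all genes. TDH1 was at −0.50 and PFK27, which makes a regulator of glycolysis, at −1.15. On the higher side PGK1 was at 1.17, ADH1 at 1.10, ENO2 at 1.07 and PDC1, pyruvate decarboxylase, at 0.99. Of the 12 lower genes, 5 were at least 2-fold lower by the summed difference and 7 were within 2-fold, against 136 and 39 of 175 over all genes. ADH1 came to −0.39, PGK1 to −0.29 and PDC1 to −0.06, while TDH1 came to −2.04 and PFK27 to −2.29.

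Genes for poor nitrogen sources had similar responses in snf1 and wild-type cells, though several permeases differed in level. The 15 permease genes under nitrogen catabolite repression had a median response of 3.98 in snf1 cells and 3.86 in wild-type cells. The median difference was −0.22, and 0 genes passed 2-fold in either direction. That count is near the share over all genes, 0.735% higher and 3.67% lower. DAL5, the allantoate transporter, had 8.57 in snf1 cells and 8.33 in wild-type cells. DUR3, the urea transporter, had 6.82 in snf1 cells and 6.63 in wild-type cells. GAP1, the general amino acid permease, chosen after its values were seen, had 3.98 in snf1 cells and 3.86 in wild-type cells. The lowest was PUT4, the proline permease, with 2.17 in snf1 cells and 3.13 in wild-type cells. On the mid-log strain array the 15 permeases had a median of −0.60, and 3 were at least 2-fold lower in snf1 cells, against 1.61% over all genes. Their summed difference had a median of −0.85. By it 7 of 15 were at least 2-fold lower and 0 higher, against 10.7% and 6.71% over all genes.

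Of 30 enzymes and related genes under the same control, all 30 were at least 2-fold higher than in mid-log cells in the snf1 strain and 29 in the wild type. Their median response was 2.64 in snf1 cells and 2.69 in wild-type cells. The difference of responses was at least 2-fold lower in 2 genes and higher in 2, against 3.67% and 0.735% over all genes. The summed difference had a median of 0.11 over the 28 genes with a mid-log value. PUT1, proline oxidase, had 4.50 in snf1 cells and 5.71 in wild-type cells. GDB1, the glycogen debranching enzyme, had 1.74 in snf1 cells and 2.88 in wild-type cells, and is also on the general stress and glycogen lists. On the higher side, ARO10, a decarboxylase of the Ehrlich pathway without a mid-log value, had 2.99 in snf1 cells and 1.70 in wild-type cells. GDH2, the NAD-linked glutamate dehydrogenase, had 2.93 in snf1 cells and 1.88 in wild-type cells.

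The 27 regulators of TORC1 and nitrogen signalling had 0 genes past 2-fold and a median difference of 0.28. Over all genes 0.735% were higher and 3.67% lower, so 0 of 27 is near that share. DAL80, a GATA repressor, had 6.01 in snf1 cells and 5.23 in wild-type cells. The activators GLN3 and GAT1 had differences of 0.27 and −0.06, and GZF3, a second GATA repressor, one of 0.48. NPR1, a kinase of permease control, had 1.99 in snf1 cells and 1.36 in wild-type cells. IML1, NPR2 and NPR3 of the SEACIT complex, which restrains TORC1, had differences of 0.60, 0.47 and 0.25. SCH9, the kinase downstream of TORC1, was the lowest at −0.74 in snf1 cells and −0.14 in wild-type cells.

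Sulfur and autophagy genes stayed near the wild-type response. On the list of sulfate assimilation and methionine synthesis, 34 genes had a median response of 2.69 in snf1 cells and 2.24 in wild-type cells, and 0 had a difference past 2-fold. MET3, ATP sulfurylase, had 4.47 in snf1 cells and 3.57 in wild-type cells. The 29 genes for autophagy and vacuolar proteases had a median response of 1.18 in snf1 cells and 0.83 in wild-type cells. Again 0 had a difference past 2-fold. For lists of this size both counts are near the share over all genes, 0.735% higher and 3.67% lower. ATG8, whose product is attached to autophagosome membranes, had 3.13 in snf1 cells and 2.33 in wild-type cells.

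Several purine genes had lower responses in snf1 cells. Of 36 genes for purine and pyrimidine synthesis, the difference was at least 2-fold lower in 4 and higher in 0, with a median of −0.40. The shares over all genes were 3.67% lower and 0.735% higher. ADE17, which acts late in purine synthesis, had 1.07 in snf1 cells and 3.35 in wild-type cells. ADE1 had 0.52 in snf1 cells and 2.13 in wild-type cells. On the amino acid list the lowest was SHM2, cytosolic serine hydroxymethyltransferase, a source of the one-carbon units that purine synthesis uses. It had −0.26 in snf1 cells and 1.40 in wild-type cells. SNO1, of vitamin B6 synthesis, had 1.38 in snf1 cells and 3.16 in wild-type cells.

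Ribosomal protein genes had nearly the same responses in both strains, though several differed in level. The 136 cytosolic ribosomal protein genes had a median response of −2.68 in snf1 cells and −2.70 in wild-type cells. Their differences ran from −0.76 for RPL2B to 0.95 for RPS31, with 0 past 2-fold, against 0.735% higher and 3.67% lower over all genes. On the mid-log strain array their median was 0.52. Their summed difference had a median of 0.56. By it 31 of the 136 were at least 2-fold higher in starved snf1 cells and 0 lower, against 6.71% higher over all genes. The A and B copies can share signal, and the absolute gap between the copies had a median of 0.19 over 58 pairs.

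The 106 ribosome biogenesis genes had a median response of −2.60 in snf1 cells and −2.34 in wild-type cells. The response was at least 2-fold lower in 92 of them in snf1 cells and in 95 in wild-type cells. The difference of responses was at least 2-fold lower in 6 of the 106 genes and higher in 0, near the 3.67% lower over all genes. Of the 6, 2 had a value on all 15 arrays. PUF6, an RNA-binding protein of the large subunit pathway, had −4.35 in snf1 cells and −2.83 in wild-type cells. NOP1, the fibrillarin gene, had −5.53 in snf1 cells and −4.36 in wild-type cells, a difference that fell within 2-fold with quantile normalisation. RPA14, a subunit of RNA polymerase I, was the lowest of its list with −3.38 in snf1 cells and −1.51 in wild-type cells.

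G1 cyclin and DNA replication genes had the highest median difference of the 37 lists. It was 0.37 over 38 genes, with 35 above 0 and 0 past 2-fold. Over all genes 3033 of 5580 were above 0, 0.735% were at least 2-fold higher and 3.67% lower, so 0 of 38 is near that share. The median response was −0.20 in snf1 cells and −0.51 in wild-type cells. At least 2-fold lower were 2 genes in snf1 cells and 9 in wild-type cells, against 17.2% and 14.6% over all genes. RAD27, the flap endonuclease, had −0.15 in snf1 cells and −1.14 in wild-type cells. POL1, the catalytic subunit of DNA polymerase alpha, had −0.92 in snf1 cells and −1.88 in wild-type cells. The G1 cyclin gene CLN3 had a difference of −0.47.

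**Figure D4:**
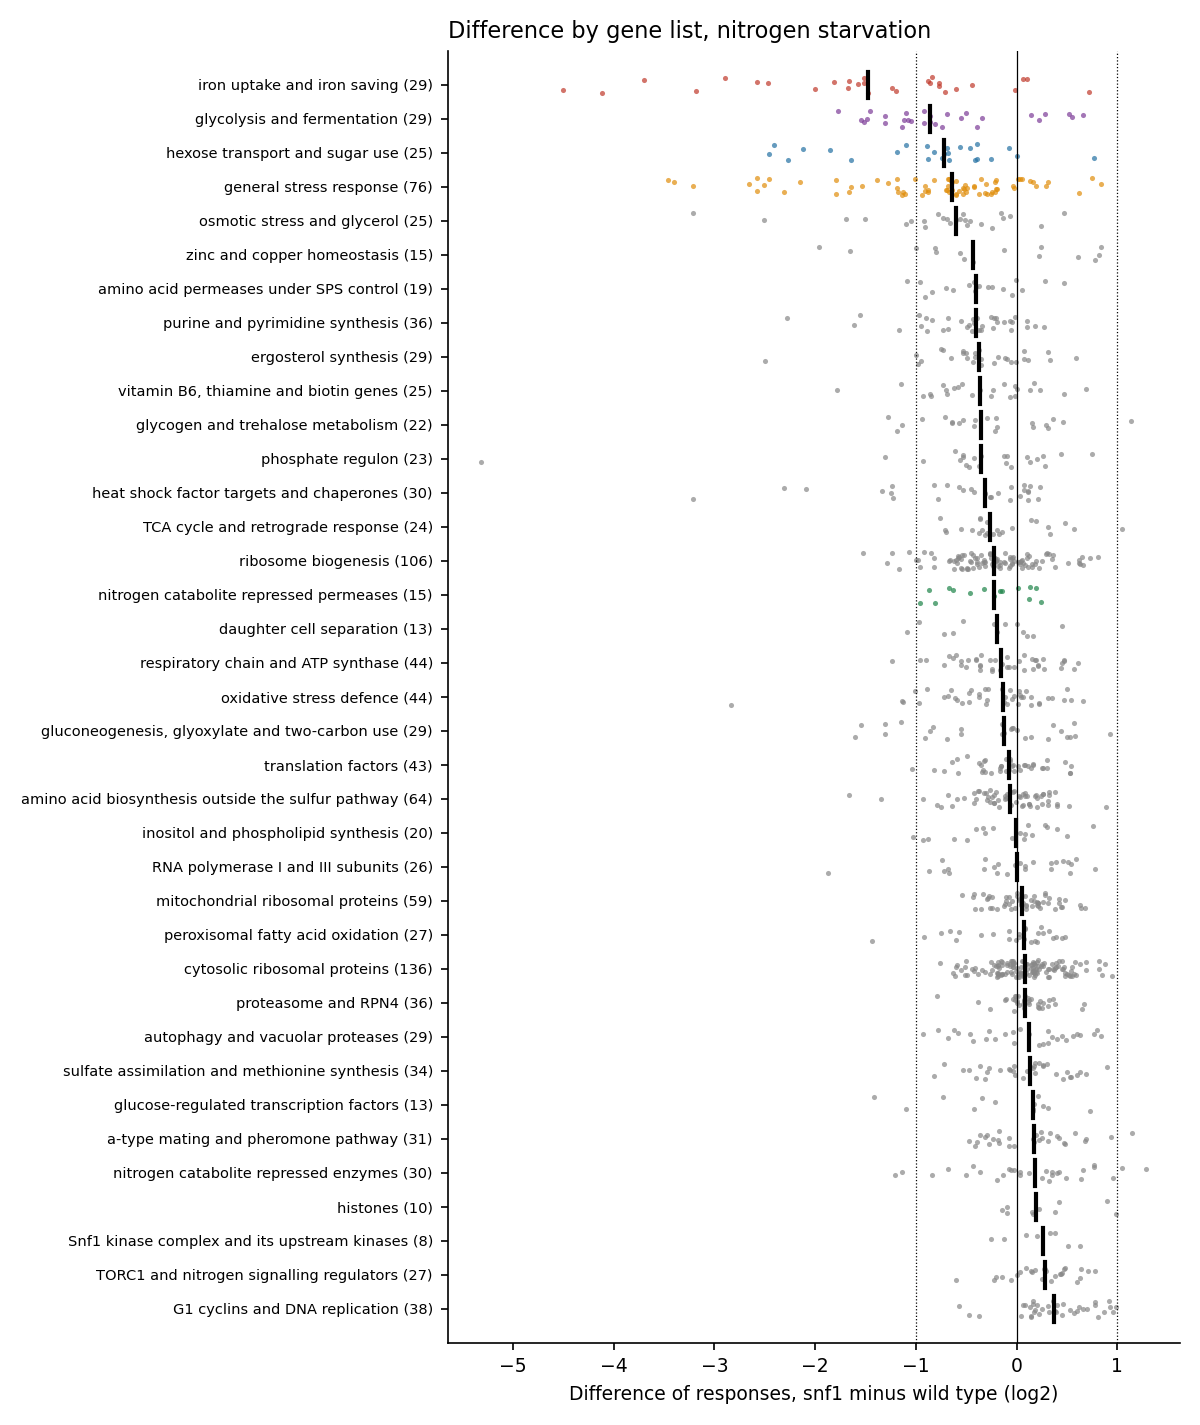
Difference of the snf1 and wild-type responses to nitrogen starvation (log2) for each gene of 37 lists, 1 point per gene, with the list median as a black bar and the number of genes in parentheses. The dotted lines mark a 2-fold difference. The iron list has its median at −1.48 and the G1 and DNA replication list at 0.37, and 5 lists have a median of −0.5 or lower.

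Genes with a higher response in snf1 cells were fewer and smaller in size, and 0 of them reached 4-fold, against 41 genes at least 4-fold lower. Of the 24 named genes at least 2-fold higher, 4 were in any list and 14 had a value on all 15 arrays. MND1, a meiotic recombination gene, had 1.75 in snf1 cells and 0.09 in wild-type cells. CHA1, the serine and threonine deaminase, had 1.72 in snf1 cells and 0.36 in wild-type cells. RAD59, of DNA double-strand break repair, had 4.29 in snf1 cells and 3.25 in wild-type cells.

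Alpha mating type genes were on this side. MATALPHA2 had 1.73 in snf1 cells and 0.35 in wild-type cells, and HMLALPHA2, its near-identical copy, had 2.30 in snf1 cells and 1.17 in wild-type cells. HMLALPHA1, chosen after its values were seen, had 1.59 in snf1 cells and 0.59 in wild-type cells. The mid-log strain ratio was 1.32 for MATALPHA2 and 2.06 for HMLALPHA2, with snf1 cells in Cy5. In KCl and in 0.1% glucose, MATALPHA2 had 1.42 and 1.31 in snf1 cells and 2.33 and 1.43 in wild-type cells. HMLALPHA2 had 1.47 and 1.37 in snf1 cells and 1.82 and 1.54 in wild-type cells there. These ratios are all above 0 with the treated or snf1 cells in Cy5, and a dye effect was not tested. The probes of the alpha2 genes can share signal. FUS1, needed for cell fusion in mating, had 0.95 in snf1 cells and −0.20 in wild-type cells. The a-type markers MFA1, MFA2, STE2, BAR1 and AGA2 had differences between −0.27 and 0.24. The alpha-type markers STE3, MF(ALPHA)1, MF(ALPHA)2 and SAG1 had −0.18, 0.69, 0.68 and −0.41. These are ratios, so they do not show how strongly the cells expressed either set.

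Other genes on this side have unrelated roles. ARO10 and GDH2, described above, were among them. PIG2, a putative regulator of the Glc7 phosphatase in glycogen metabolism, had 1.06 in snf1 cells and −0.08 in wild-type cells. The cohesin-associated gene PDS5 had 0.07 in snf1 cells and −1.02 in wild-type cells, and the mismatch repair gene MSH6 had 0.64 in snf1 cells and −0.39 in wild-type cells. TPM2, the minor tropomyosin, had 1.35 in snf1 cells and 0.25 in wild-type cells.

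The same difference in the other treatments is given side by side, without a test, since all pairs have a mid-log control and may share it. In 0.375 M KCl, 70 of 5401 genes (1.3%) were at least 2-fold higher and 156 (2.89%) lower in the snf1 than in the wild-type response. In 0.1% glucose, 495 of 5580 genes (8.87%) were higher and 383 (6.86%) lower. The iron list had a median difference of −1.48 in nitrogen starvation, −0.58 in KCl and −0.12 in 0.1% glucose. The general stress list had −0.64, −0.59 and −0.72 in the same order of treatments. The hexose transporter and sugar use list had −0.72, −0.29 and −1.39, and the glycolytic list −0.86, −0.31 and 0.34.

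Single genes showed the same range of patterns. FIT2 had −4.12 in nitrogen starvation, −1.53 in KCl and −0.11 in 0.1% glucose. SIT1, with −3.18, −2.54 and −1.82, was lower in all 3 treatments. SPI1 had −3.40, −2.26 and −2.16, and SPS100 had −3.58, −3.51 and −0.76. HXT7 had −2.41, −0.88 and −4.30. PHO84 had −5.32 in nitrogen starvation, −1.65 in KCl and 0.91 in 0.1% glucose, and HSP30 had −3.21, −1.26 and 4.19, so these genes did not keep their sign.

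**Figure D5:**
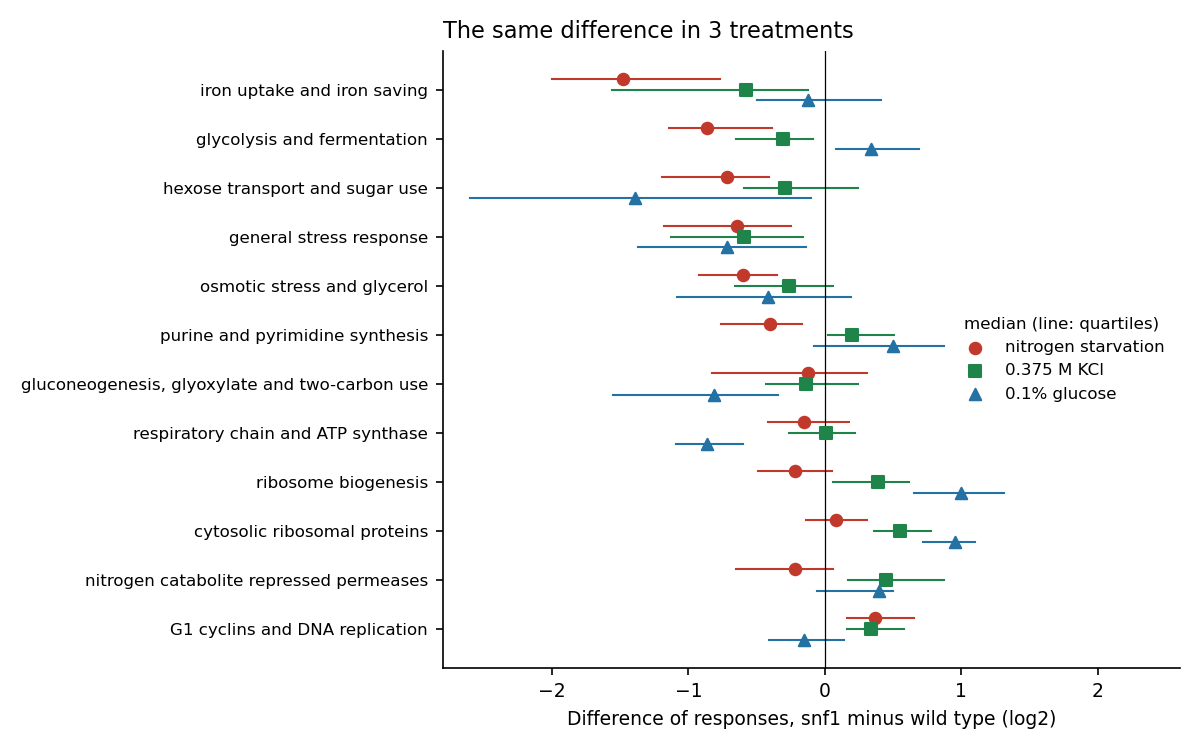
Median difference of the snf1 and wild-type responses (log2) for 12 gene lists in nitrogen starvation (red circles), 0.375 M KCl (green squares) and 0.1% glucose (blue triangles), with lines for the quartiles over the genes and 1 array per strain and treatment. The iron list is lowest in nitrogen starvation at −1.48, and the hexose transport and sugar use list is lowest in 0.1% glucose at −1.39. The general stress list lies between −0.72 and −0.59 in all 3.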

How the data were processed

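The authors deposited 1 table of log ratios of Cy5 over Cy3 with 2 decimals, for 15 arrays. Their base is not stated. They were read as log2, and with another base every difference and 2-fold count would scale. How the authors corrected background, normalised and filtered spots was not given in the sources used here. These deposited log2 ratios were used without recentring. Exact zeros on the wild-type and mid-log strain arrays were treated as no value, and replicate probes were averaged for 7 genes. The 4068 named genes carry symbols of the platform annotation, updated for 129 probes, and 2181 probes have none. Gene order came from the RefSeq annotation of the reference strain, R64. Differences, medians and counts were computed in Python 3.11.15 with pandas 2.3.3. Only the counting of genes past 2-fold was run on simulated data, with changes far larger than the added noise. The medians were not checked in that way. A count means at least 2-fold, a log2 value of 1 or more in size. Nothing was tested, since each side has 1 array.

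The members, 37 gene lists and 257 named genes were chosen with earlier results of these data known. A gene can be in several lists. Named were the 20 highest and 20 lowest genes with a symbol, up to 10 each way with 2-fold responses in opposite directions, and 2 list members at each end. Also named were all members of 3 regulator lists, and any list member past 2-fold where the list median was 0.5 or more in size or 5 members passed. Alternatives were recentring, quantile normalisation, other thresholds, genes with a value on all arrays, and other treatments of zeros.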

Additional observations from a re-analysis of the deposited data

Results flagged for a closer look

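For 7 named genes the single snf1 array and the single wild-type array went in opposite directions by at least 2-fold, and for none of them was the difference tested. They were PHO84 (difference −5.32), FIT3 (−4.50), SPS100 (−3.58), TKL2 (−3.46), GRE1 (−2.51), FRE2 (−2.47) and HXT6 (−2.46). All 7 were lower in snf1 cells and higher in wild-type cells. PHO84 and SPS100 had no value on at least 1 of the 15 arrays, and the other 5 had a value on all 15.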

How the results depend on the processing

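With 1 array on each side and no test, 41 genes were at least 2-fold higher and 205 lower in the snf1 response. Those counts were 518 and 697 at 1.5-fold, 0 and 41 at 4-fold, and 334 and 532 for the summed difference. With a value required on all 15 arrays the higher count was 17, and the KCl count of lower genes was 100 in place of 156. Taking the zeros on the wild-type array as a ratio of 1, an alternative added after seeing the data as was the one in KCl, gave 74 and 426. More genes enter there, and the cause of the other shifts was not tested. Recentring, quantile normalisation and leaving out zeros of the snf1 array kept both counts within 1.5 times. The 37 list medians moved by −0.37 to 0.26 under 5 alternatives, which is under 1.5-fold. Of 257 named genes, 2 moved by more than 1.5-fold, both with quantile normalisation, ZRT1 to −1.32 and NOP1 to −0.56. Of the 123 named genes past 2-fold, 106 stayed past it with quantile normalisation and 119 with recentring. Only 94 of the 123 had a value on all 15 arrays. No paired analysis was possible because each strain had 1 nitrogen starvation array.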

Other observations

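The 669 genes with no value on the wild-type array, 207 of them named, were left out above, although most had a ratio on the snf1 array. There, 33 were at least 2-fold higher than in mid-log cells and 221 lower, with a median of −0.42. They held 24 members of the lists for ribosome biogenesis and RNA polymerases I and III, of which 23 were at least 2-fold lower in snf1 cells. These 24 had a median of −2.67 and a range of −5.56 to −0.33. On the snf1 array 14 blank and negative control spots ranged from −2.71 to 0.10, and the part of dim signal in these values was not tested. On the wild-type array the same spots ranged from −0.84 to 0.00. PWP2, a subunit of the complex that processes small subunit RNA, had the lowest value, −5.56. The ribosome assembly gene MAK16 had −4.50 and the RNA polymerase I subunit gene RPA43 had −4.36. What wild-type cells did at these genes cannot be read from the array, so no difference is given. The genes PWP2, MAK16 and RPA43 were chosen after their values were seen.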
